A study of Oryza sativa Japonica Group with 6 samples.

Results

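Superoxide dismutases are the enzymes that turn superoxide into hydrogen peroxide, and they differ in the metal at their active site. The 8 rice loci described here are 4 loci of the copper/zinc family, 1 iron and 1 manganese superoxide dismutase, the copper chaperone CCS and plastocyanin. They were chosen by their known metal use and with their signal on these same arrays in view, out of 28834 loci on the array. Their differences between the groups are therefore given as a description, with no test. A set of 6 depends on or handles copper and 2 use iron or manganese instead. All 8 had at least 1 probe well above background on all arrays, so none was lost to a filter on dim signals. The array carried 28 probes for them, and 26 of these were well above background on all 6 arrays.

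Copper/zinc superoxide dismutases work in the cytosol and in the plastid stroma, where CCS hands them their copper. Iron superoxide dismutases work in plastids and manganese superoxide dismutase in mitochondria. Plastocyanin is the copper protein that carries electrons from the cytochrome b6f complex to photosystem I, and it is a major holder of copper in green leaves. In Arabidopsis, when copper is scarce, the transcription factor SPL7 raises the microRNA miR398, copper/zinc dismutase and CCS transcripts fall and an iron dismutase takes over in the plastid. Names and roles of loci given here are general knowledge of rice genes and were not checked against an annotation.

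RNA came from blades of the fourth leaf of Nipponbare rice with 4 leaves, grown from seed at 25 °C without treatment. One group of 3 arrays was labelled Line 13, a single transgenic line that accumulates linalool through an overexpressed linalool synthase, and the other group of 3 arrays was labelled wild type. Each replicate pooled 3 or more plants, and the sources used here do not name the promoter of the transgene. Signals are given as log2 of the processed intensity minus the 75th percentile of the gene spots of that array, so 0 means a signal at that percentile and 1 unit is a doubling. Levels of different probes are not comparable, and only the same probe is set against itself.

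The linalool synthase locus Os02g0121700 checked the labels first. Its signal was -6.52, -5.84 and -3.65 on the arrays labelled Line 13, against -3.32, -0.92 and -1.497 on those labelled wild type. It was lower on every array labelled Line 13, and well above background on 2 of these 3, with a log2 difference of -3.43 (SE 0.90, n = 3 and 3, limma with Benjamini-Hochberg adjustment, adjusted p = 0.0185). Leaving out Line 13 replicate 2, wild-type replicate 2 or wild-type replicate 3 ended the call, at adjusted p of 0.0573, 0.0613 and 0.0620. This goes against the label of an overexpressing line. The locus had 1 probe, whose match to the transgene is not stated in the labels, and every direction below is a direction between labels.

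Facts of the whole array set the scale for what follows. Of 22271 genes and single probes tested, 54.7% were called at limma adjusted p under 0.05, 26.7% higher and 28.0% lower on the arrays labelled Line 13. The groups did not overlap for 68.5%, with 32.7% higher and 35.9% lower in Line 13. The median difference over all of them was -0.07. Across genes, signals correlated at 0.902 to 0.979 among the Line 13 arrays, 0.976 to 0.991 among the wild-type arrays and 0.604 to 0.740 between the groups. Line 13 replicate 1 was dimmer, with a 75th percentile signal of 325, against 1559 and 932 on replicates 2 and 3 and 720 to 959 in wild type. On it 72.3% of gene spots were well above background, against 85.5% and 81.2% on replicates 2 and 3 and 71.4% to 72.3% in wild type. The combination of slide and scan date was shared within each group and differed between the groups, so it cannot be told apart from the label. Of 5 leaf blade markers 1, Rubisco activase, fell and none rose, and all 5 were detected on all arrays. Under quantile normalization activase still fell and 2 others rose. Their summed signal, in multiples of the 75th percentile, was 465 to 900.2 on the Line 13 arrays and 973 to 1247 on the wild-type arrays. Of 5 markers of dividing tissue 4 rose, and the sum was 5.97 to 10.8 in Line 13 against 0.517 to 0.840 in wild type, where 2 of the 5 were on no array well above background. Both root markers rose, with a sum of 24.5 to 29.5 in Line 13 against 0.00743 to 0.0145 in wild type, where neither was well above background. One of them, RCc3, was not called without wild-type replicate 2 or 3 or with the other background correction. Markers tested only because they were bright in Line 13 had to differ, so these counts are a description. With detection required on all 6 arrays, 2 dividing-tissue markers and 0 root markers were tested. The part of these other tissues in the results below was not tested. In such bulk samples, fewer cells of a type and less RNA per cell cannot be told apart.

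The groups did not overlap for any of the 8 loci. On the arrays labelled Line 13, 6 were higher and 2 were lower, beside a background of 68.5% of genes that did not overlap. Nothing is read from that count, since the loci were chosen with this contrast known. By description, 4 of the 6 copper loci and both copper-free dismutases were higher, and a copper/zinc dismutase-like locus and plastocyanin were lower. The median difference was 1.09 over the 6 copper loci and 0.97 over the 2 copper-free loci.

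**Figure D1:**
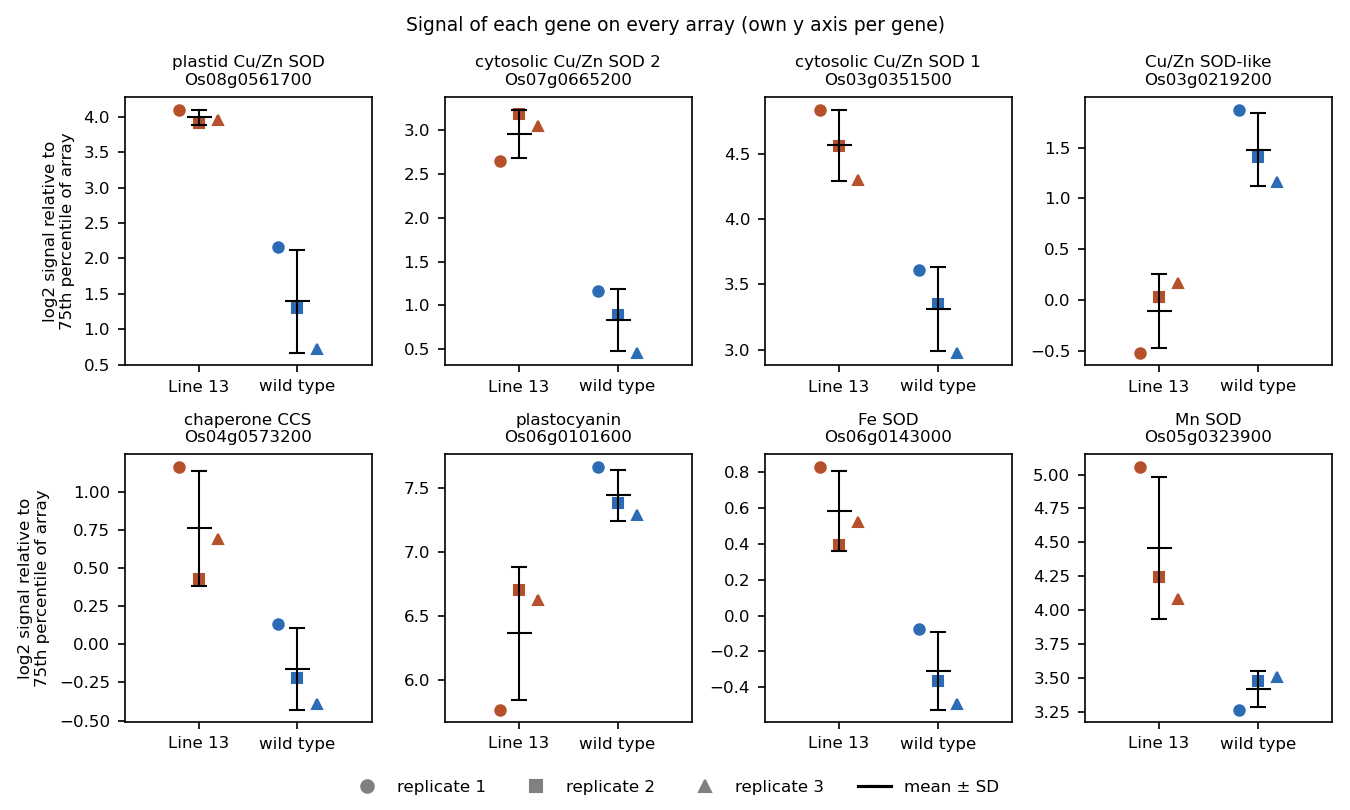
Log2 signal over the array's 75th percentile (y axis, its own range for each gene) on the 3 arrays labelled Line 13 (left, rust) and the 3 labelled wild type (right, blue), with the mean and SD of each group as black bars. The 6 loci that were higher in Line 13 and the 2 that were lower, the copper/zinc dismutase-like locus and plastocyanin, are separated from wild type on every array.

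The plastid copper/zinc superoxide dismutase, Os08g0561700 on chromosome 8, had the largest difference of the 8. Its log2 signal was 4.10, 3.91 and 3.95 on Line 13 replicates 1 to 3, against 2.16, 1.31 and 0.72 on wild-type replicates 1 to 3. The Line 13 arrays were nearly alike, while the wild-type arrays were spread over more than 1 unit, with replicate 1 highest. The means were 3.99 ± 0.10 in Line 13 and 1.40 ± 0.73 in wild type (SD, n = 3 each), a difference of 2.59 (SE 0.37), or 6.04-fold higher. Its 5 probes gave differences from 2.38 to 2.63. Leaving out 1 array in turn moved the difference between 2.26 and 2.98.

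The cytosolic copper/zinc dismutases came next. Os07g0665200 on chromosome 7 had a signal of 2.65, 3.18 and 3.05 in Line 13 and of 1.16, 0.89 and 0.46 in wild type. Every Line 13 array was thus more than 1 unit above the highest wild-type array, and the difference was 2.12 (SE 0.26), 4.36-fold. This locus had a single probe, so its value has no second probe beside it. Os03g0351500 on chromosome 3 had 4.84, 4.56 and 4.30 in Line 13 and 3.61, 3.35 and 2.98 in wild type. The gap between the nearest arrays was smaller here, and the difference was 1.25 (SE 0.25), 2.38-fold. Its 4 probes lay close together, from 1.23 to 1.31.

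The fourth locus of the family, Os03g0219200 on chromosome 3, encodes a copper/zinc dismutase-like protein and went the other way. Its signal was -0.52, 0.03 and 0.17 in Line 13, against 1.87, 1.41 and 1.16 in wild type. All Line 13 arrays were below all wild-type arrays, with a difference of -1.59 (SE 0.28), or 3.00-fold lower, from 1 probe. Within 1 enzyme family, 3 loci were therefore higher and 1 lower on the arrays labelled Line 13.

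The chaperone CCS, Os04g0573200 on chromosome 4, inserts copper into these enzymes. Its brightest probe had 1.16, 0.42 and 0.69 in Line 13 and 0.13, -0.22 and -0.39 in wild type. The groups were separate but close, with Line 13 replicate 2 the nearest to wild type, and the difference was 0.92 (SE 0.27), 1.89-fold. A second bright probe gave 0.996. The other 2 of its 4 probes were well above background on 1 and 2 of the 6 arrays and are not read further.

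Plastocyanin, Os06g0101600 on chromosome 6, was lower where the plastid dismutase was higher. Its signal was 5.77, 6.70 and 6.63 in Line 13, against 7.67, 7.38 and 7.29 in wild type. Line 13 replicate 1 was clearly the lowest, and the other Line 13 arrays also lay below all wild-type arrays. The difference was -1.08 (SE 0.30), 2.11-fold lower, and its 2 probes gave -1.08 and -0.95. Without Line 13 replicate 1 it was -0.78, and under quantile normalization it was -0.36, so its size moved more with the processing than that of any other of the 8 loci.

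The copper-free dismutases were both higher. The iron enzyme Os06g0143000 on chromosome 6 had 0.83, 0.40 and 0.52 in Line 13 and -0.07, -0.36 and -0.49 in wild type. Its groups were separate, with a difference of 0.89 (SE 0.22), 1.86-fold. The other 2 of its 3 probes gave 0.83 and, for the dimmest, 0.45. The manganese enzyme Os05g0323900 on chromosome 5 had 5.06, 4.24 and 4.08 in Line 13 and 3.26, 3.47 and 3.51 in wild type. Line 13 replicate 1 was well above the other Line 13 arrays, and the difference of 1.05 (SE 0.29), 2.06-fold, was 0.75 without it. Its 8 probes gave 0.62 to 1.05, all in the same direction.

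**Figure D2:**
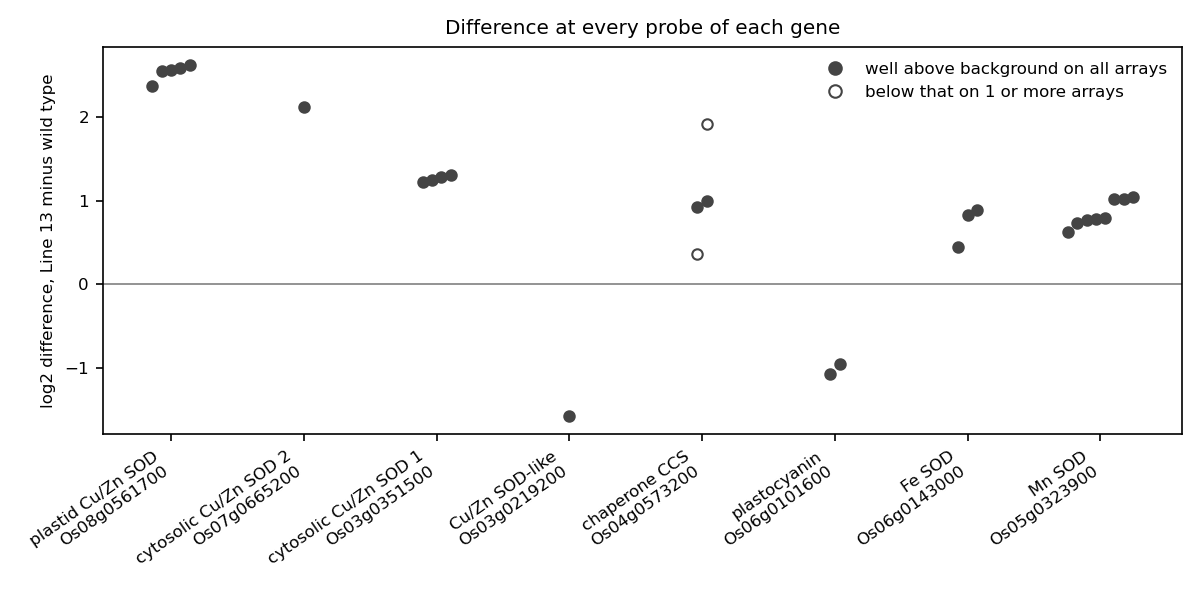
Log2 difference, Line 13 minus wild type, at each of the 28 probes of the 8 loci; filled points were detected on all 6 arrays, open points are the 2 dim CCS probes. Probes of 1 locus lie on the same side of 0. Apart from the dim CCS probes they lie mostly close together, from 2.38 to 2.63 for the plastid copper/zinc dismutase and from -1.08 to -0.95 for plastocyanin.

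A second iron superoxide dismutase, Os06g0115400, is the remaining locus of the enzyme family. It had 1.38, 1.30 and 1.29 in Line 13 and 0.70, 0.51 and 0.70 in wild type, higher on 3 of 3 Line 13 arrays. The difference was 0.69 (SE 0.17, limma adjusted p = 0.0149). The call was lost without Line 13 replicate 2 (adjusted p = 0.0501), without wild-type replicate 2 (0.0878) and with array medians as the scale (difference 0.38, adjusted p = 0.153). Array medians lowered every difference of every gene by 0.31.

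A ratio of 2 loci within an array does not depend on how arrays are scaled by a constant, and it shows unequal change only. Set against the iron enzyme Os06g0143000 and with the wild-type mean at 0, the plastid copper/zinc dismutase was at 1.57, 1.81 and 1.73 on the Line 13 arrays and at 0.53, -0.03 and -0.49 on the wild-type arrays. The signal of the plastid copper enzyme was thus 1.70 log2 units further up than that of the iron enzyme. The cytosolic loci Os07g0665200 and Os03g0351500 were further up by 1.23 and 0.36, without overlap of the groups. At the brightest probe of each locus, CCS moved with the iron enzyme. The CCS ratio was 0.18, -0.12 and 0.02 in Line 13 and 0.06, -0.01 and -0.05 in wild type, which overlapped. The ratio of the manganese enzyme also overlapped, with a difference of 0.15. The dimmest iron-enzyme probe had a difference of 0.45, against 0.89 for the brightest. Ratios to that dimmer probe are not given, so the overlaps are stated for the brightest probe. The dismutase-like locus and plastocyanin were lower relative to the iron enzyme by differences of -2.48 and -1.97.

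**Figure D3:**
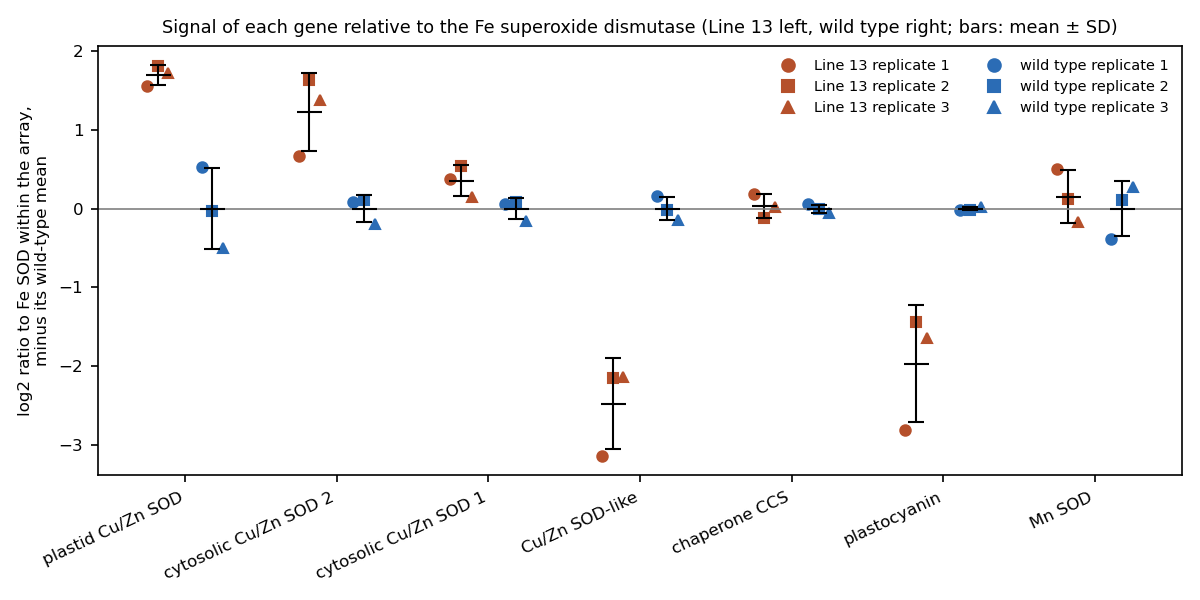
Log2 ratio of each locus to the iron superoxide dismutase Os06g0143000 within the same array, minus its wild-type mean (y axis), for Line 13 arrays (left, rust) and wild-type arrays (right, blue), with mean and SD. Each locus is shown by its brightest probe. The plastid copper/zinc dismutase lies 1.70 above, plastocyanin 1.97 below, and CCS and the manganese enzyme overlap with wild type.

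Among the 3 wild-type arrays most of the loci had the same order. Whether an offset of whole arrays left by the scaling gave this order was not tested. Replicate 1 had the highest signal for 7 of the 8 loci and replicate 3 the lowest for the same number, with the manganese enzyme the exception in both. Over all genes, replicate 1 was the highest wild-type array for 43.7% and replicate 3 the lowest for 41.3%. The SD of the plastid copper/zinc dismutase over wild-type arrays, 0.73, was larger than that of 94.5% of genes, while its SD over Line 13 arrays, 0.10, was larger than that of 6.51%. The median SD over genes was 0.43 on the Line 13 arrays and 0.18 on the wild-type arrays. On the Line 13 arrays the highest replicate was replicate 1 for 5 loci, replicate 2 for 2 and replicate 3 for 1. Line 13 replicate 1 was lowest for Os07g0665200 and for the 2 loci that were lower in Line 13.

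The most alike patterns were looked for over the 6 arrays. The locus nearest to the plastid copper/zinc dismutase was Os01g0750400, with Pearson r = 0.9997 and a difference of 3.00 (SE 0.43). The one nearest to the iron enzyme was Os02g0690000, with r = 0.9987 and a difference of 3.33 (SE 0.59). These identifiers have no names in the files, and r over 6 arrays in 2 groups mostly reflects the gap between the groups. Over 0.95 were 1402 loci for the plastid copper/zinc dismutase and 1420 for the iron enzyme, 6.34% and 6.42% of those tested.

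Gene lists here and below were chosen with earlier results of these data known. Named loci were mostly those with the smallest p, so the counts and p-values are a description. Genes for copper uptake, delivery and regulation moved in both directions. Of 13 listed, 11 were on the array and 7 could be tested, of which 4 fell, 1 rose and 2 did not pass. Over all genes and single probes, 28.0% were called lower and 26.7% higher. The median difference of the list was -1.02, beside -0.07 over all genes. That median is the value of HMA5, which did not pass, and without Line 13 replicate 1 it was -0.52 over 8 tested. SPL9, Os05g0408200, a transcription factor known in rice to act on the copper-linked miR528, had -0.90, -0.90 and -0.92 in Line 13, against 1.09, 1.15 and 1.08 in wild type. The arrays of each group were nearly alike and the groups far apart, and SPL9 fell by 2.01 (SE 0.16, limma adjusted p = 0.000159). The copper transporter COPT1, Os01g0770700, had -4.96, -3.25 and -2.17 in Line 13 and -0.22, 0.47 and 0.53 in wild type, and fell by 3.72 (SE 0.69, adjusted p = 0.00489). The cytosolic copper chaperone ATX1, Os08g0205400, had -0.51, 0.76 and 1.05 in Line 13 and 2.70, 2.77 and 2.91 in wild type, and fell by 2.36 (SE 0.41, adjusted p = 0.00393). It thus went the opposite way to CCS, the chaperone of the dismutases.

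The P-type ATPase HMA4, Os02g0196600, which loads copper into vacuoles, was the 1 gene of that list that rose, by 1.05 (SE 0.20, limma adjusted p = 0.00589). The transporter COPT7, Os09g0440700, fell by 0.96 (SE 0.30, adjusted p = 0.0341), a call lost without any 1 wild-type array or Line 13 replicate 2, with no filter and with normexp background correction, where adjusted p ran from 0.0512 to 0.104. The ATPases HMA5 and HMA9 had differences of -1.02 (SE 0.54) and 0.07 (SE 0.22) and did not pass. COPT2, COPT3, COPT5 and HMA6 were not tested, as neither group had them well above background on all 3 arrays.

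Most tested genes for other copper enzymes rose in Line 13. Of 16 listed 11 could be tested, of which 10 rose, none fell and 1 did not pass, beside 26.7% called higher over all genes. The median difference was 4.18, beside -0.07 over all genes. Genes tested only because they were bright in 1 group had to differ, so the count of 10 is a description. Laccases, multicopper oxidases of the cell wall, accounted for 8 of the 10 and ascorbate oxidases, of the apoplast, for the other 2 of 3 tested. The laccase locus Os05g0458500 was an estimated 139.6-fold higher, with -1.36, 0.20 and 1.06 in Line 13 and -7.75, -7.74 and -7.99 in wild type. Laccase loci Os11g0641800 and Os05g0458600 were an estimated 66.4-fold and 63.8-fold higher. In wild type none of these 3 was well above background. Each estimate sets the Line 13 mean against the higher of the wild-type signal and the dimmest detected probe, and it is no lower limit. Over the other settings the log2 differences of Os05g0458500, Os11g0641800 and Os05g0458600 went down to 3.89, 3.06 and 2.95. Laccase locus Os01g0850700 was well above background on all arrays and rose by 5.92 (SE 0.49, limma adjusted p = 0.000185). The 5 untested loci were well above background on at most 2 Line 13 arrays and no wild-type array. When detection on all 6 arrays was required, 4 of the list were tested and 3 rose, with a median of 2.47, and with normexp background correction the median of all 11 was 2.43. The markers of dividing and root tissue were higher on the same arrays, as given above.

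Plastocyanin had company among its neighbours in the electron chain. Of 12 genes for electron carriers and photosystem I subunits all were tested, 11 fell, none rose and 1, psaF, did not pass (difference -1.11, SE 0.45). Over all genes and single probes tested, 28.0% were called lower and 26.7% higher. The median difference over the 12 genes was -1.499, beside -1.08 for plastocyanin and -0.07 over all genes. The ferredoxin-NADP reductases, which use the electrons to make NADPH, both fell. Os06g0107700 fell by 1.56 (SE 0.20, limma adjusted p = 0.00102), and Os02g0103800 fell by 2.24 (SE 0.29, adjusted p = 0.00112). The Rieske protein of the cytochrome b6f complex, Os07g0556200, which feeds the step that reduces plastocyanin, fell by 2.18 (SE 0.35, adjusted p = 0.00277). The photosystem I subunit psaL, Os12g0420400, fell by 2.09 (SE 0.32, adjusted p = 0.00236). Under quantile normalization 5 of the 12 fell and the median was -0.91, and without 1 array the number that fell ran from 8 to 11. Line 13 replicate 1 had the lowest signal for all 4 genes named, as it had for plastocyanin.

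**Figure D4:**
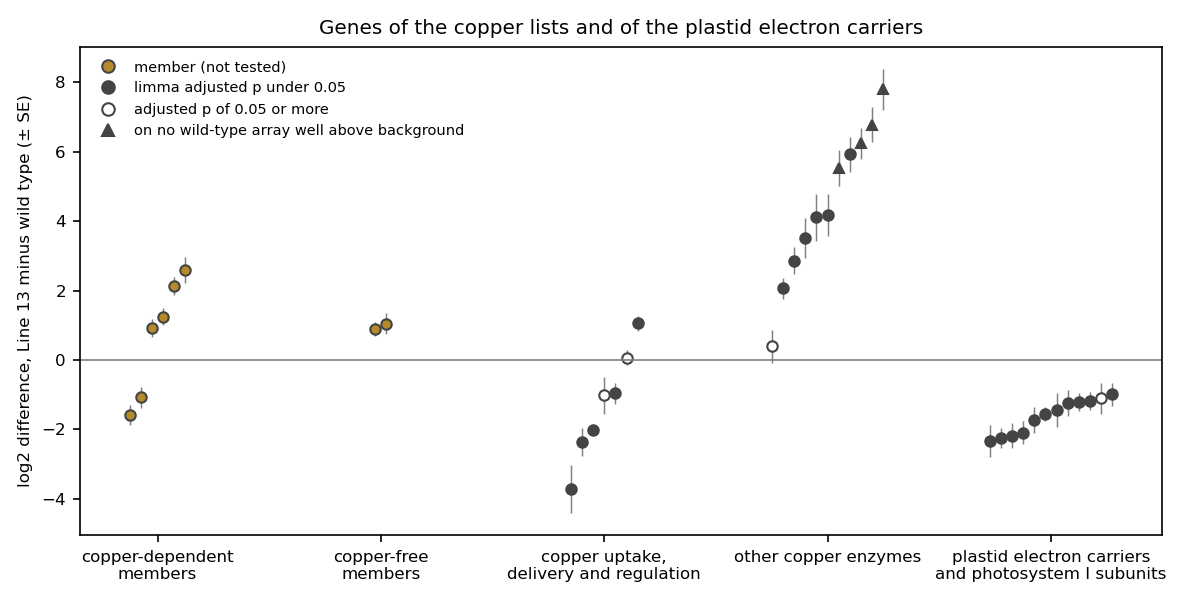
Log2 difference, Line 13 minus wild type, with its SE (y axis), for the copper-dependent and copper-free loci (ochre, not tested) and for the tested genes of 3 lists (filled: limma adjusted p under 0.05; open: not passed; triangles: well above background on no wild-type array). Genes for copper uptake, delivery and regulation lie on both sides of 0 with a median of -1.02, other copper enzymes above it with a median of 4.18, and electron carriers and photosystem I subunits below it with a median of -1.499.

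The array also held probes named for copper-linked microRNAs. Which form of the microRNA transcript each probe reports was not checked, so no value here is read as a level of mature microRNA. All 3 miR398a probes were well above background on every wild-type array and on no Line 13 array. The probes named 3'seq, 5'seq and Mature were an estimated 188-fold, 187-fold and 84.6-fold lower in Line 13. Each estimate uses the higher of the Line 13 signal and the dimmest detected probe of the array, and it is no lower limit. On Line 13 replicate 2 that dimmest probe was at -9.96, and the 3 undetected miR398a probes were at -9.69, -9.91 and -8.66. The 3'seq probe had log2 signals of -7.26, -9.69 and -7.33 in Line 13 against -0.36, 0.05 and -0.32 in wild type. The 3 miR398b probes had differences of -1.68, -2.78 and -1.44, called lower except with the other background correction. The 3 miR528 probes had differences of -2.34, -3.30 and -1.87, and all 3 were called lower, the Mature probe not with normexp (-0.35, limma adjusted p = 0.570). The 3 miR408 probes had -0.02, -0.52 and -0.59 and none was called. The last 2 were called lower under quantile normalization and without Line 13 replicate 1, the last also with array medians, and all 3 with array weights. Of 6 miR397 probes 5 were well above background on no array. The miR397b 3'seq probe was lower by 5.71-fold in the same kind of estimate (limma adjusted p = 0.00900), a call lost with normexp.

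Other ways of scaling kept the direction of each of the 8 loci. With array medians, quantile normalization and another background correction the difference of the plastid copper/zinc dismutase was 2.28, 2.70 and 2.51, and that of the dismutase-like locus -1.90, -1.53 and -1.61. For the iron enzyme these were 0.58, 0.90 and 0.77, and for plastocyanin -1.39, -0.36 and -1.15.

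**Figure D5:**
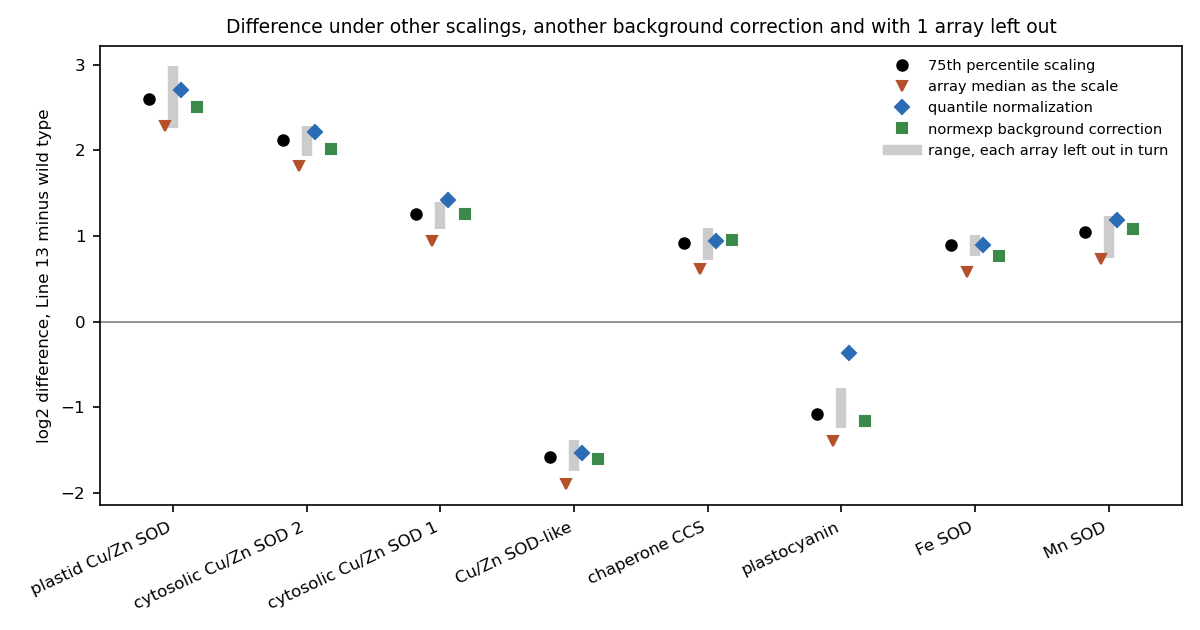
Log2 difference, Line 13 minus wild type (y axis), of each of the 8 loci under 4 ways of processing (symbols) and its range when 1 array is left out in turn (grey bars). No point crosses 0, and plastocyanin spans the widest range of the settings shown relative to its size, from -1.39 to -0.36.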

How the data were processed

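Per the file headers, the deposited intensity is the processed signal of Agilent Feature Extraction 10.10.1.1, background-subtracted and detrended within each one-colour Cy3 array, and not scaled between arrays. The authors' value table is the same intensity times 1 constant per array and served as an alternative. Here log2 of the processed signal minus each array's 75th percentile of gene spots entered a model of the 2 groups without a block (lmFit and eBayes of limma 3.58.1, R 4.3.3), and p-values were adjusted by Benjamini-Hochberg over 22271 genes and single probes and a threshold of 0.05. Outlier spots were left out and repeated spots averaged. A probe was tested where all 3 arrays of either group were well above background (at least 50% of its spots), and the brightest such probe stood for its locus. The number of arrays limits the precision. Labels do not say whether pools were independent cultures, so p-values set each group difference against the spread within the groups of these samples only. That spread holds no effect of the combination of slide and scan date, which differed between the groups.

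Members and gene lists were chosen with earlier results of these data known. Named genes were all 8 loci, the second iron dismutase, linalool synthase, the nearest patterns, copper-linked microRNA probes and, per list, the 4 loci with the smallest unadjusted p; COPT7, HMA5, HMA9, psaF and untested loci were named besides, to account for counts. Same-numbered arrays did not deviate together (correlations 0.109, -0.025 and -0.004), so numbers were not taken as pairs. The steps were tested on simulated data. The files hold a median and no mean spot signal, so normexp used the median, with an offset of 50, as an alternative chosen after seeing the files. No spot of the 8 loci was saturated. Figures were drawn in matplotlib 3.10.9 (Python 3.11.15).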

Additional observations from a re-analysis of the deposited data

How the results depend on the processing

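Over the scalings, background corrections, filters, probe rules and arrays left out, none of the 8 loci changed direction. With array medians as the scale the median difference was 0.77 over the 6 copper loci and 0.66 over the 2 copper-free loci, since that scale lowered every gene by 0.31; it left 36.0% of calls higher against 48.9% (4688 higher, 8339 lower), and the filter on all 6 arrays left 3795 genes higher. Under that filter 3 other copper enzymes were called higher, as 4 were tested. Under quantile normalization 5 electron carriers and photosystem I subunits fell; the cause was not tested. Array weights gave 9700 lower genes. With 1 array left out in turn, genes called higher ran from 4702 to 7095 and lower from 4071 (without wild-type replicate 2) to 7526, the copper median from 0.91 to 1.23, the copper-free median from 0.76 to 1.08, and the within-array difference of plastid copper/zinc and iron dismutase from 1.45 to 1.97. In the same refits, copper uptake, delivery and regulation genes called lower ran from 3 to 4, other copper enzymes called higher from 10 to 12, and electron carriers called lower from 8 to 11. With the replicate number as a block, 5519 genes were higher and 5403 lower, 8 electron carriers fell, and the counts of the copper lists did not change. The normexp correction on the mean signal was not run, as the files hold no such column. Signals near background limit the laccase, microRNA and dividing and root marker values: with normexp on the median signal 4 microRNA probes of miR398b and miR528 and 1 of miR397b were no longer called.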
